A study of Mus musculus with 39 samples.

Results

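The apolipoprotein RNAs of mouse liver were followed through sucrose gradients as a family of 10 genes, chosen by name: Apoa1, Apoa2, Apoa4, Apoa5, Apob, Apoc1, Apoc3, Apoe, Apoh and Apom. All 10 were listed in both deposited tables, among 14386 gene symbols listed in either table and 13230 in both, and all 10 passed the filter on low values that left 11702 genes for testing. Apob, whose RNA is very long, was set against the other 9, which are called the short members here. In ATLAS-Seq, liver homogenate made without detergent is layered on a sucrose gradient, spun so that particles sediment by size and density, and collected in fractions whose RNA is sequenced.

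The livers came from 2 wild-type FVB female mice, 1 gradient per mouse, with no treatment and no other genotype, and their age is not given in the sources used here. The homogenate was cleared of nuclei at 5000 g for 10 minutes, then spun for 3 hours at 30000 rpm through 10 to 50% sucrose and collected in 24 fractions of 0.5 ml. Libraries of 39 fractions were analysed, 17 of gradient 1 (fractions 4 to 19 and 21) and 22 of gradient 2 (fractions 3 to 24), and 17 fractions were shared by both. The groups compared were zones of 4 fractions each: light (fractions 4 to 7), middle (10 to 13) and dense (16 to 19), each with n = 2 gradients. Fractions of a gradient come from the same animal and were not counted as replicates, and libraries were made from equal amounts of RNA whatever a fraction held.

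Values are in TPM, the share of a gene's transcripts among all transcripts of a library, corrected for transcript length and scaled to a fixed total, so a TPM is a share of the RNA of its fraction and not an amount. A lower TPM can mean less of an RNA or more of the others in that fraction. All fractions of a gradient were taken from the same homogenate, so differences between zones are not differences in the number of cells. Between the gradients, fewer cells of a type and less RNA per cell cannot be told apart in these bulk samples. Between 10532 and 12558 genes were above 1 TPM in each library, and the same fraction of both gradients had a median Pearson's R of 0.967 over log2(TPM + 1). TPM keeps no read depth, so the counting error of each value is unknown. All 8 hepatocyte markers were in both tables, with a summed TPM of 28251 to 60432 in the light zone and 10586 to 22560 in the dense zone, while the sums for Kupffer cells (187 to 247 and 94.5 to 135) and for sinusoidal endothelium (41.7 to 80.7 and 18.8 to 38.7) were far lower. The sums for stellate cells (31.6 to 78.6 and 9.23 to 20.8), cholangiocytes (3.09 to 8.85 and 4.85 to 9.43), erythroid cells (406 to 764 and 120 to 162) and lymphocytes (1.48 to 6.81 and 0.660 to 1.44) covered 5 of 6, 4 of 5, 4 of 5 and 3 of 5 listed markers. No marker in both tables was at 0 throughout a zone, and the part of other cell types in the results was not tested.

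Apolipoproteins are the protein coat of the particles that carry lipid through blood. Apob is the large structural protein of very low density lipoprotein and of low density lipoprotein. It stays with a single particle for life and takes up lipid while it is still being made at the endoplasmic reticulum. The exchangeable apolipoproteins (Apoa1, Apoa2, Apoa4, Apoa5, Apoc1, Apoc3 and Apoe) are small proteins that move between particles, Apom is a carrier of a signalling lipid on high density lipoprotein, and Apoh is a phospholipid-binding plasma glycoprotein. All are made in hepatocytes and enter the secretory pathway, so their RNAs are translated at the endoplasmic reticulum.

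In the GRCm38 (mm10) annotation of GENCODE, Apob lay at chr12:7977648-8016835 on the plus strand with 29 exons, a transcript of 13934 nt and a coding length of 13515 nt. The short members had coding lengths from 264 nt (Apoc1) to 1185 nt (Apoa4). Apoa1 (chr9:46228580-46230466), Apoc3 (chr9:46232933-46235636), Apoa4 (chr9:46240696-46243459) and Apoa5 (chr9:46268633-46271919) form a cluster on chromosome 9, and Apoc1 (chr7:19689481-19692660) and Apoe (chr7:19696109-19699188) are neighbours on chromosome 7. Apoa2 lay at chr1:171225054-171226379, Apoh at chr11:108343354-108414396 and Apom at chr17:35128997-35132050. Apoa4 overlaps Gm47528 and Gm10680 on the opposite strand, Apoa5 overlaps Gm47544 on the opposite strand, and Apoh overlaps Prkca on the opposite strand and Gm11656 on its own, so their values are less certain than the others, since the strand setting of the quantification is not given in the sources used here.

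The first 75 coding bases are shown for Apob and for 4 short members, because this stretch encodes the start that directs each protein to the endoplasmic reticulum and is what the long and the short RNAs have in common. Capitals mark codons with T as the second base, all of which encode hydrophobic residues. The sequences are spliced GRCm38 sequence, 5′ to 3′ on the coding strand.
Apob, first coding base chr12 7977779, plus strand: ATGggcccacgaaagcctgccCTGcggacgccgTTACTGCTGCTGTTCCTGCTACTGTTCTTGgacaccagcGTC
Apoa5, first coding base chr9 46269098, plus strand: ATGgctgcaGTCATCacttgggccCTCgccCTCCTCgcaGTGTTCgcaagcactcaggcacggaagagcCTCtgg
Apoa2, first coding base chr1 171225315, plus strand: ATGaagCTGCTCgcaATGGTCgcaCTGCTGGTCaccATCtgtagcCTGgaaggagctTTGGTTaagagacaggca
Apoc1, first coding base chr7 19692468, minus strand: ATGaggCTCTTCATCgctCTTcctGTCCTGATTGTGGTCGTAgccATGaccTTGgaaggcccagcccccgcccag
Apom, first coding base chr17 35131723, minus strand: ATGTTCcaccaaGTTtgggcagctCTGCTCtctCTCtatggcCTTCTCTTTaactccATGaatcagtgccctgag
The 10 members had between 9 and 13 such codons among their first 25, against a median of 7 over 10975 genes tested, and 28.0% of those genes had at least 9. Apob and Apoc1, which sedimented differently, both had 13.

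The TPM of Apob was highest near the top of both gradients. In gradient 1 its TPM had a lowest value of 64.8 (fraction 17), a median of 102 and a highest value of 1811 (fraction 5), and in gradient 2 a lowest value of 104 (fraction 14), a median of 140.4 and a highest value of 1878 (fraction 6). In the 4 light fractions of gradient 1 Apob stood at 1056, 1811, 1604 and 822 TPM, and in the 4 dense fractions at 84.6, 64.8, 69.5 and 84.1. In gradient 2 the light fractions held 1081, 1549, 1878 and 806 TPM and the dense fractions 115, 112, 119 and 134. The light and dense values did not overlap in either gradient, which is not given here for all genes. Of the TPM summed over the 17 shared fractions, 74.7% (gradient 1) and 69.1% (gradient 2) lay in the 4 light fractions. TPM is a share of each library, so these percentages do not give the amount of Apob RNA in a fraction.

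**Figure D1:**
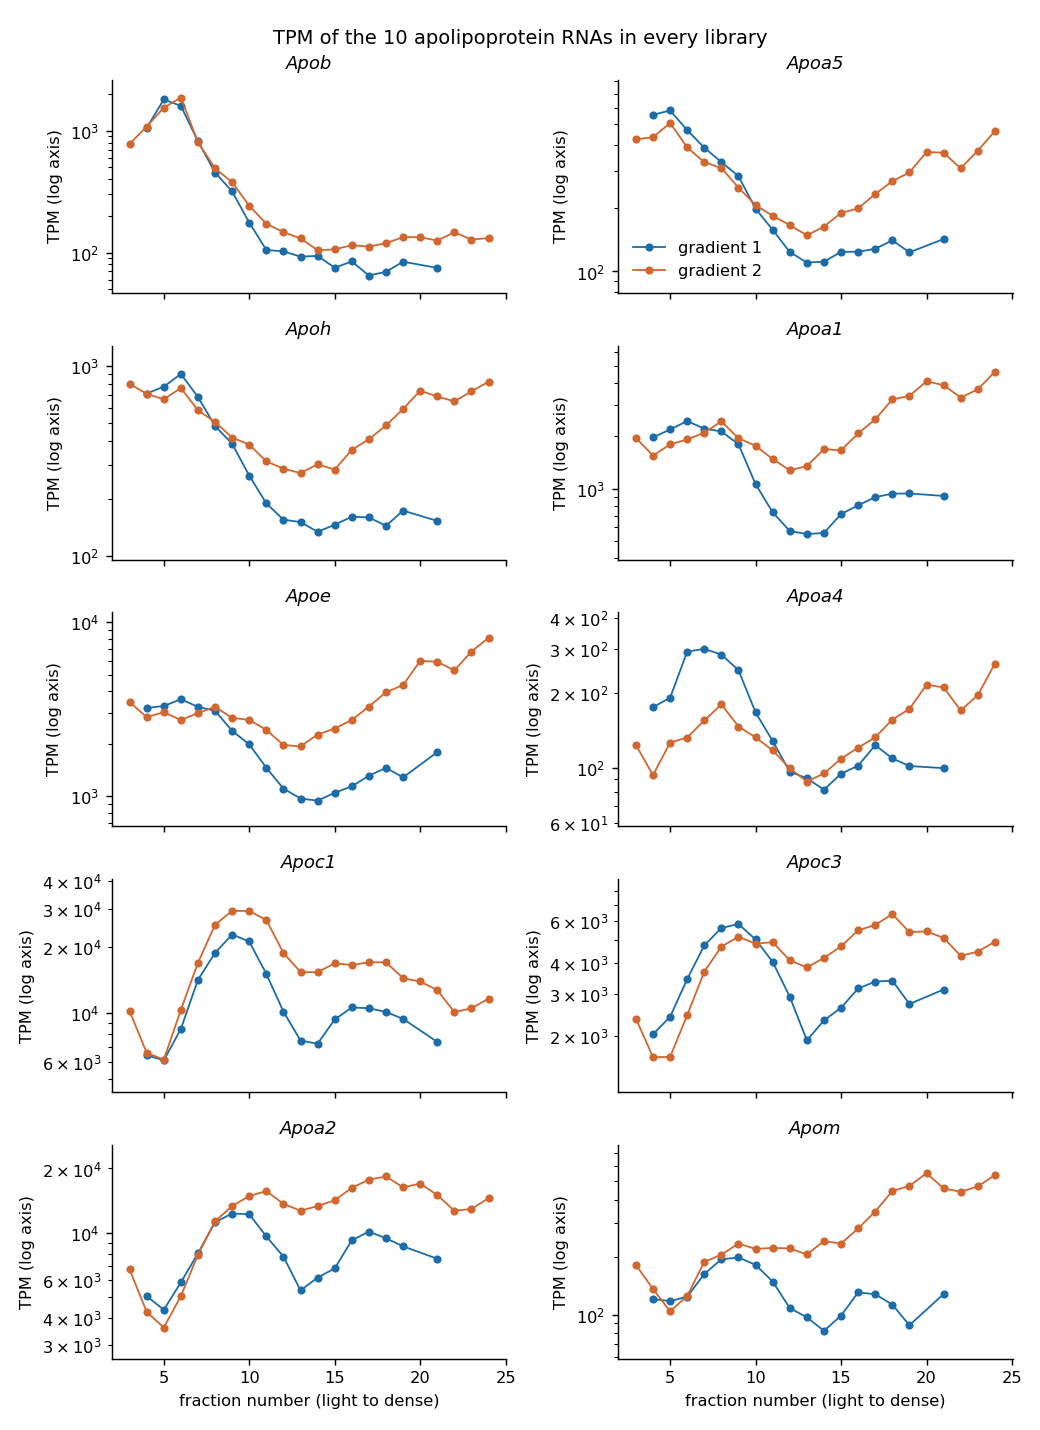
TPM (log axis, scaled to each gene) of the 10 apolipoprotein RNAs against fraction number from light to dense, 1 point per library, blue for gradient 1 and orange for gradient 2. Apob fell from 1811 and 1878 TPM at its peaks to 64.8 and 104 TPM in both gradients, whereas Apoc1 peaked at fraction 9 and Apoe in gradient 2 was highest in fraction 24.

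Zones were compared by limma on zone means of log2(TPM + 1), with adjusted p-values by Benjamini-Hochberg over the 11702 genes. From the light to the dense zone Apob fell by 3.72 on the log2 scale (SE 0.29, adjusted p = 3.9e-04), a change of -4.05 in gradient 1 and -3.39 in gradient 2. Only 62 of the 11702 genes fell further. Apoa5, an activator of plasma triglyceride breakdown, fell by 1.33 (SE 0.33, adjusted p = 0.015), and Apoa2, the second main protein of high density lipoprotein, rose by 1.25 (SE 0.40, adjusted p = 0.038). The other 7 members did not pass the test. The 3 members called compare with 61.5% of all genes tested, 22.3% with a rise and 39.2% with a fall (2609 and 4583 genes, or 3609 and 3486 with quantile normalization). The difference between these shares was not tested. With the gradient as a block, Apoh was called as well (fell by 1.41, adjusted p = 0.020, against 0.056 without the block), while 80.4% of all genes were called. Apoh was also called with quantile normalization (adjusted p = 0.042), with other zone borders (0.033) and with gradient 2 shifted by 1 fraction down (0.021). The call of Apoa2 was lost with TPM rescaled without the 50 most abundant genes (adjusted p = 0.051), with other zone borders (0.085) and with gradient 2 shifted by 1 fraction up (0.053), and both Apoa2 (0.13) and Apoa5 (0.085) lost theirs when each gene's own spread replaced the spread moderated across genes.

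From the light to the middle zone Apob fell by 3.17 (SE 0.29, adjusted p = 0.0013), and 38 genes fell further. Apoa5 fell by 1.50 (SE 0.33, adjusted p = 0.014) and Apoh by 1.58 (SE 0.52, adjusted p = 0.0497). In this comparison 47.2% of all genes were called, 23.6% higher and 23.6% lower in the middle zone. With the gradient as a block, under which 71.9% of all genes were called, Apoa2 (rose by 1.03, adjusted p = 0.026) and Apoc1 (rose by 0.92, adjusted p = 0.013) were called in addition, as they were with quantile normalization (adjusted p = 0.024 and 0.034). The call of Apoh was marginal, since its adjusted p was 0.053 with a pseudocount of 0.1, 0.0501 with no filter, 0.051 with gradient 2 shifted up, 0.089 with other zone borders and 0.18 with its own spread, under which Apoa5 had 0.084.

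Between the middle and the dense zone none of the 10 members passed limma's test, with or without the block, in a comparison that called 27.4% of all genes without the block and 53.7% with it, and with adjusted p-values of the members from 0.22 to 0.85 without it. At an unadjusted p under 0.05 there were 0 members without the block and 1 with it. The genes called were 563 with a rise and 2643 with a fall, or 1212 and 1608 with quantile normalization. Apob changed by -0.55 (SE 0.29, adjusted p = 0.22), -0.61 in gradient 1 and -0.49 in gradient 2. With zones at fractions 5 to 8, 9 to 12 and 15 to 18 its change was -1.02 and passed the test (adjusted p = 0.032).

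Apob and the short members were then compared within each library, which removes the scaling of the library. The log2 ratio of Apob to the mean of the 9 short members was -0.12, 0.61, 0.18 and -0.91 in the light fractions of gradient 1 and 0.15, 0.65, 0.72 and -0.77 in those of gradient 2. In the dense fractions it was -3.14, -3.61, -3.48 and -3.08 in gradient 1 and -3.60, -3.81, -3.93 and -3.79 in gradient 2. Light and dense values of the ratio did not overlap in either gradient, which is not given here for other genes. The lowest ratio of all was -4.11 in fraction 24 of gradient 2. In fractions 4 to 7 of both gradients Apob RNA exceeded 4 of the 9 short members (Apoa4, Apoa5, Apoh and Apom), and from fraction 15 on it was below all 9. Among the TPM of the 10 members, Apob made up 8.31% in fraction 5 and 0.241% in fraction 17 of gradient 1, and 8.09% and 0.235% in the same fractions of gradient 2.

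**Figure D2:**
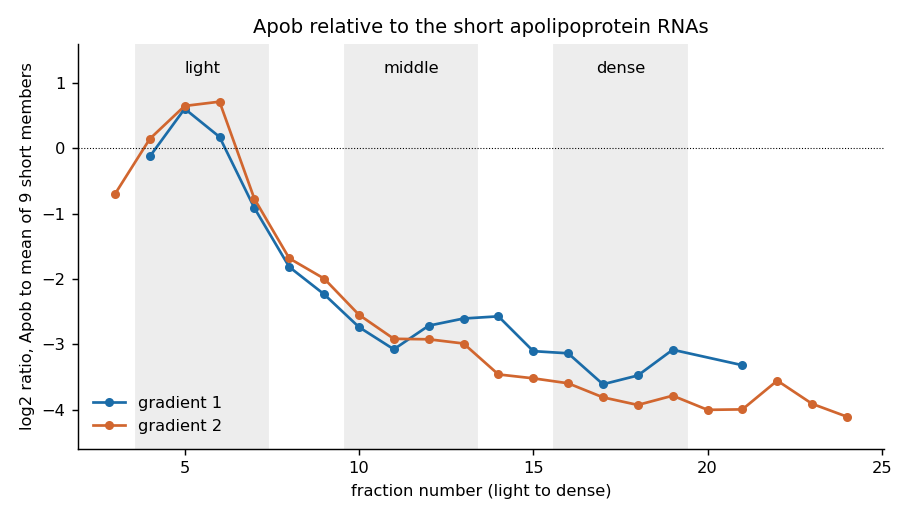
Log2 ratio of Apob to the mean of the 9 short apolipoprotein RNAs, on log2(TPM + 1), against fraction number, 1 point per library, with the 3 zones shaded. In both gradients the ratio was above 0 in fractions 5 and 6, near -3 by fraction 11 and lowest at -3.61 (gradient 1) and -4.11 (gradient 2).

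From light to dense zone the ratio fell by 3.62 (a change of -3.26 in gradient 1 and -3.97 in gradient 2), which is a 12.3-fold decrease. The limma fit to the centred values gave an SE of 0.66 and an adjusted p = 7.5e-06, in a fit that called 20.4% of all genes relative to the short members. From light to middle zone the ratio fell by 2.87 (adjusted p = 0.0012, with 7.98% of genes called), and from middle to dense zone it changed by -0.74 (adjusted p = 0.73, with 0.0427% of genes called). Subtracting the same short members from every gene gives all genes shared deviations. In this fit limma put no limit on its prior degrees of freedom, so these p-values rest on the pooled spread. With a pseudocount of 0.1 the prior degrees of freedom were 40.91, and the cause of the missing limit was not tested. With the spread of Apob alone the SE was 0.21 and the unadjusted p was 4.4e-04 for dense against light and 8.7e-04 for middle against light, but the adjusted p-values were 0.12 and 0.18, and 0 genes passed, with 2718 and 1786 genes at an unadjusted p under 0.05. The 2 gradients alone allow no exact permutation test below p = 0.333.

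**Figure D3:**
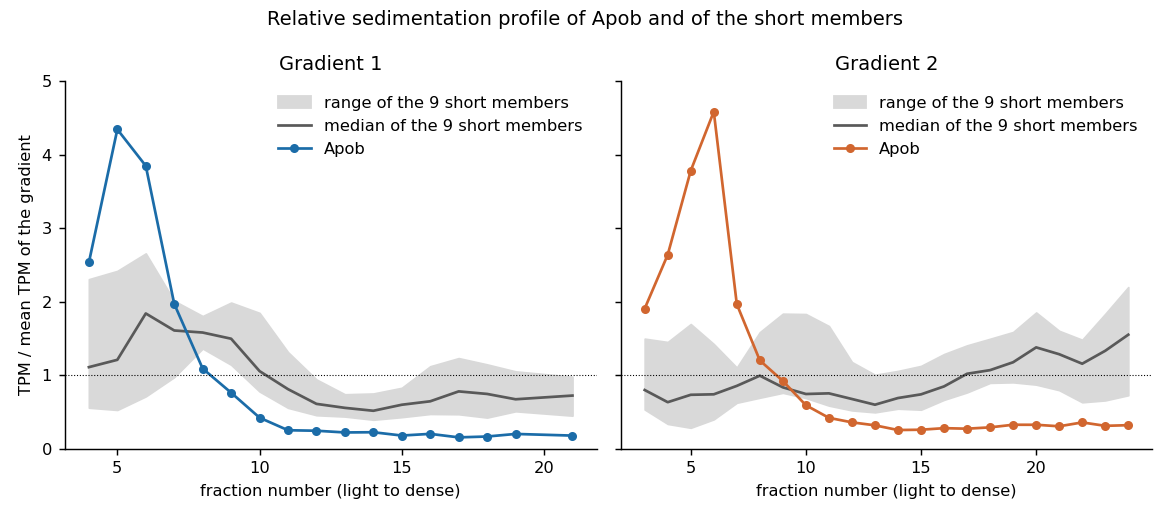
TPM divided by its mean over the gradient, against fraction number, for Apob (coloured points, 1 per library) and for the 9 short members (grey line, median of the members, and grey band, their range). Apob reached 4.34 times its mean over the 17 fractions of gradient 1 and 4.58 times its mean over the 22 fractions of gradient 2, values that rest on unlike sets of fractions and are not compared, and then stayed below the band of the short members from fraction 10 on.

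Apoa5 and Apoh had profiles that also fell from the top, but less steeply. This grouping, like those of the other members below, was made after the values were seen. Apoa5 in gradient 1 had a lowest value of 110.2 TPM (fraction 13), a median of 143 and a highest value of 582 (fraction 5), and in gradient 2 it had a lowest value of 149 (fraction 13), a median of 302 and a highest value of 508 (fraction 5). Apoh in gradient 1 had a lowest value of 134 TPM (fraction 14), a median of 174 and a highest value of 903 (fraction 6), and in gradient 2 it ranged from 273 (fraction 13) through a median of 544 to 822 (fraction 24). Both therefore came back at the bottom of gradient 2 (means of 383 and 734 TPM in fractions 22 to 24), where Apob had a mean of 135 TPM.

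Apoa1, Apoe and Apoa4 had a trough in the middle of the gradient, where Apoa5 and Apoh had their lowest values as well. Apoa1, the main protein of high density lipoprotein, had a lowest value of 550.1 TPM (fraction 13), a median of 935 and a highest value of 2424 (fraction 6) in gradient 1, and a lowest value of 1271 (fraction 12), a median of 2003 and a highest value of 4634 (fraction 24) in gradient 2. Apoe, a ligand through which cells take up lipoprotein particles, had a lowest value of 942 TPM (fraction 14), a median of 1458 and a highest value of 3609.6 (fraction 6) in gradient 1, and 1934 (fraction 13), 3024 and 8138 (fraction 24) in gradient 2. Apoe is also made by macrophages, and the summed Kupffer cell markers stood at a median of 219.6 TPM in the light zone, 108 in the middle and 119 in the dense zone. The summed hepatocyte markers had medians of 41597, 12420 and 14382 TPM in the same zones. Such sums follow how the marker RNAs sediment, and the part of Kupffer cells in the Apoe profile was not tested. Apoa4, a protein of chylomicrons and high density lipoprotein, had a lowest value of 81.7 TPM (fraction 14), a median of 123 and a highest value of 301 (fraction 7) in gradient 1, and 88.1 (fraction 13), 133 and 262 (fraction 24) in gradient 2. The troughs of all 3 lay at fractions 12 to 14 in both gradients, but their highest values lay at the top in gradient 1 and at the bottom in gradient 2.

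Apoc1, Apoc3, Apoa2 and Apom had lower values in fractions 4 and 5 than in fraction 9, where their maximum lay in gradient 1. Apoc1, an inhibitor of lipid uptake and transfer, had a lowest value of 6072 TPM (fraction 5), a median of 10113 and a highest value of 22837 (fraction 9) in gradient 1, and 6117 (fraction 5), 15377 and 29307 (fraction 9) in gradient 2, so that its lowest and highest fractions were the same in both. Apoc3, an inhibitor of lipoprotein lipase, had a lowest value of 1919.7 TPM (fraction 13), a median of 3149 and a highest value of 5824 (fraction 9) in gradient 1, and 1635 (fraction 4), 4699.8 and 6402 (fraction 18) in gradient 2. Apoa2 had a lowest value of 4365 TPM (fraction 5), a median of 8020.5 and a highest value of 12312 (fraction 9) in gradient 1, and 3609 (fraction 5), 13512 and 18357.5 (fraction 18) in gradient 2. Apom had a lowest value of 82.4 TPM (fraction 14), a median of 124 and a highest value of 199 (fraction 9) in gradient 1, and 104 (fraction 5), 235 and 549 (fraction 20) in gradient 2. In gradient 1 these 4 genes had a second, lower rise at about fractions 16 to 18 after a trough at 13 or 14, and in gradient 2 only Apoc1 had its highest value at fraction 9.

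The 2 gradients differed in how the short members were spread over the zones. The change from light to dense zone was higher in gradient 2 than in gradient 1 for all 10 members, by 0.53 (Apoc1) to 1.88 (Apoa1), and by at least 1 on the log2 scale for 8 of 10, against 4.49% of all genes tested. The change from light to middle zone was likewise higher in gradient 2 for all 10, by 0.54 (Apob) to 1.30 (Apoa1). For 9 members the mean TPM differed by a larger ratio between the gradients in the dense zone than in the light zone, as for Apoa1 (2187 and 1828 in the light zone, 892 and 2786 in the dense zone of gradients 1 and 2). Apoa4 was the exception, differing more in the light zone (a mean of 240.1 TPM in gradient 1 and 127 in gradient 2) than in the dense zone (109 and 145). The sign differed between the gradients for 4 members: Apoa1 changed by -1.29 and 0.59, Apoe by -1.37 and 0.28, Apoa4 by -1.09 and 0.21, and Apom by -0.20 and 1.47 in gradients 1 and 2. Opposite signs were found for 7.78% of all genes tested, and the median change of all genes was -0.39 in both gradients. With 1 mouse per gradient this difference was not tested. Apob moved the same way in both gradients, and so did Apoa2 (0.72 and 1.78), Apoc1 (0.30 and 0.82), Apoa5 (-1.93 and -0.73) and Apoh (-2.25 and -0.57). Apoc3 was at 0.07 and 1.37, but its mean TPM in gradient 1 was 3157 in the light zone and 3155 in the dense zone, so no direction can be given there. The 10 short RNAs of other plasma proteins, a list without members, had medians of -2.02 in gradient 1 and -0.53 in gradient 2, whereas the 12 short RNAs of cytosolic proteins had 2.41 and 2.24.

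**Figure D4:**
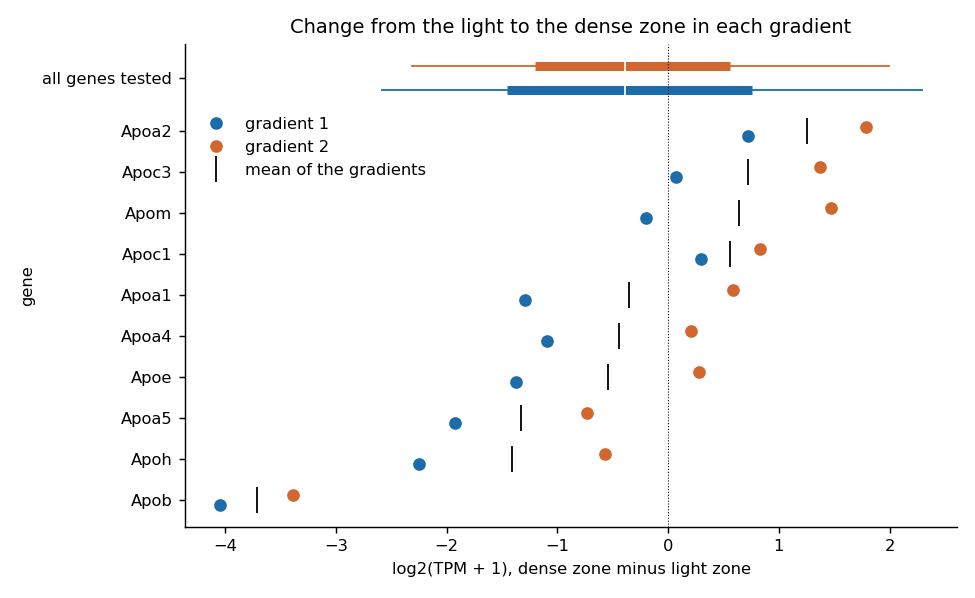
Change of log2(TPM + 1) from the light to the dense zone for each member in gradient 1 (blue) and gradient 2 (orange), with the mean as a black tick. The top bars show all genes tested (thin line, 5th to 95th percentile, thick line, quartiles, white tick, median at -0.39 in both gradients), and every member lies further right in gradient 2, with Apob at -4.05 and -3.39.

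The members differed widely in level. Over the 17 shared fractions the mean TPM was 14414 ± 4134 for Apoc1 (SD, n = 2 gradients), 10399 ± 3072 for Apoa2, 3902 ± 639 for Apoc3, 2503 ± 766 for Apoe, 1682 ± 605 for Apoa1, 435 ± 25.2 for Apob, 406 ± 93.6 for Apoh, 257 ± 22.9 for Apoa5, 193 ± 88.2 for Apom and 146 ± 17.5 for Apoa4. In this order the gradient values did not overlap between Apoa2 and Apoc3, Apoc3 and Apoe, Apoa1 and Apob, or Apoh and Apoa5. They overlapped between Apoc1 and Apoa2, Apoe and Apoa1, Apob and Apoh, Apoa5 and Apom, and Apom and Apoa4. Within each gradient, however, Apoc1 was above Apoa2, Apoe above Apoa1 and Apoa5 above Apom, while the order of the other overlapping pairs differed between the gradients. The 10 members together took 1.69% to 4.66% of the TPM of a library in gradient 1 and 1.92% to 5.47% in gradient 2.

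The center of sedimentation, the mean fraction number weighted by TPM, placed Apob apart from the other members. It was 7.03 in gradient 1 and 7.57 in gradient 2 for Apob (7.30 ± 0.38, SD, n = 2), which was at percentile 1.28 and 1.95 of all genes tested. The short members ranged from 8.88 (Apoh) to 12.3 (Apoa2) in gradient 1 and from 11.2 (Apoa5) to 14.0 (Apom) in gradient 2. The center of Apob lay 3.29 fractions above the median of the short members in gradient 1 and 5.28 in gradient 2, toward the light end (a difference of -4.28 ± 1.41). With weights of log2(TPM + 1) in place of TPM the difference was -0.79. The median center of all genes was 11.3 in both gradients, so the shift of the short members between gradients (medians of 10.3 and 12.8) was not shared by the median gene.

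Over the 17 shared fractions the profile of Apob in gradient 1 had a Pearson's R of 0.985 with that in gradient 2, at the 93.5th percentile of all genes, whose median was 0.900. Apoc1 followed with 0.910, Apoa5 with 0.851, Apoh with 0.733 and Apoa2 with 0.599. The values were 0.333 for Apoc3, 0.290 for Apoa4, 0.086 for Apoe, -0.027 for Apoa1 and -0.231 for Apom, all below the 7th percentile. Some of these depend on the scale: on log2(TPM + 1) R was 0.260 for Apoe and 0.157 for Apoa1, and Spearman's rho was 0.417 and 0.407. Neighbouring fractions are not independent, so these R values describe the profiles and carry no p.

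Genes that lie together on the chromosome did not always have like profiles. Within the chromosome 9 cluster, Apoa1 and Apoa4 had a Pearson's R of 0.921 in gradient 1 and 0.869 in gradient 2, but Apoa1 and Apoc3 had 0.381 and 0.500. On chromosome 7, Apoe and Apoc1 had 0.150 and -0.195. Apoe was most like Apoa1, on another chromosome, with 0.980 and 0.951. Of the 45 pairs of members, 5 had an R over 0.8 in both gradients: Apoa1 with Apoe, Apoa1 with Apoa4, Apoa4 with Apoe, Apoa5 with Apoh, and Apoa2 with Apoc3. The sign of R differed between the gradients for 12 pairs.

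Outside the members, the 5 genes with a mean of at least 10 TPM whose profile was most like that of Apob were Igf1 (Pearson's R of 0.994 and 0.998 in gradients 1 and 2), Lpgat1 (0.996 and 0.991), Slc10a5 (0.996 and 0.989), Insr (0.990 and 0.989) and Serpina1e (0.992 and 0.986). Igf1 encodes a secreted growth factor, Insr the insulin receptor, Lpgat1 an acyltransferase of the endoplasmic reticulum and Slc10a5 a membrane transporter. Serpina1e encodes a secreted protease inhibitor and has near-identical copies, between which pseudo-alignment can split reads, so its value is uncertain. Coding lengths of these 5 were 477 to 4116 nt, shorter than that of Apob. Their transcripts had 1673 nt (Igf1), 7233 nt (Lpgat1), 3923 nt (Slc10a5), 9355 nt (Insr) and 1295 nt (Serpina1e). Their changes from light to dense zone ranged from -2.33 (Slc10a5) to -3.81 (Serpina1e). Likeness to Apob over the same fractions fixed this direction, so it is a description and carries no test. The 5 genes most like the mean profile of the short members were Pemt (0.956 and 0.960), C8g (0.954 and 0.915), Apcs (0.911 and 0.902), Prdx4 (0.904 and 0.877) and Lrg1 (0.919 and 0.876). C8g, Apcs and Lrg1 encode secreted plasma proteins, Prdx4 a peroxiredoxin of the endoplasmic reticulum and Pemt a phospholipid methyltransferase of its membrane. Their changes from light to dense zone were negative in gradient 1 and positive in gradient 2, for instance -1.40 and 0.50 for Apcs, which again follows from how they were chosen.

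Other genes of lipoprotein biology are given from lists, again for dense against light zone, where all genes had a median change of -0.42 and 61.5% were called, or 80.4% with the gradient as a block. Counts of each list are to be read against these shares, and no difference from them was tested. Of 10 tested RNAs of other proteins of lipoprotein particles, 2 fell, 1 rose and 7 did not pass, with a median of -0.95, while 5 fell and 1 rose with the gradient as a block. Pon3 (fell by 2.16, adjusted p = 0.0029) and Pon1 (fell by 1.67, adjusted p = 0.026), enzymes carried on high density lipoprotein, were the ones that fell. Apoc4, an apolipoprotein gene near Apoe, rose by 0.87 (adjusted p = 0.015), and Saa1, which has a near-identical copy in Saa2 and is uncertain for that reason, was at 0.24 (adjusted p = 0.67).

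Of 14 genes of lipoprotein assembly and secretion, 8 fell, 1 rose and 5 (Mia2, Dgat2, Dgat1, Pla2g12b and Sar1b) did not pass, with a median of -0.89. The subunits of the complex that loads lipid onto Apob both fell. P4hb fell by 2.73 (adjusted p = 0.0033) and Mttp fell by 2.45 (adjusted p = 0.0017). Cideb, a lipid droplet protein needed for lipid loading of very low density lipoprotein, rose by 1.30 (adjusted p = 0.0014), and Sar1b, which drives the budding of transport vesicles, was at 0.29 (adjusted p = 0.48). Among 4 genes of Apob RNA editing, A1cf, the partner of the editing enzyme, fell by 1.44 (adjusted p = 0.0021), and Syncrip, an RNA-binding protein, rose by 1.10 (adjusted p = 0.0021). Apobec1, the editing enzyme, was at -0.74 (adjusted p = 0.16) and called with the block (0.0091), and Rbm47 was at 0.08 (adjusted p = 0.64).

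Of 11 plasma lipases, transfer and remodelling factors, 8 fell, none rose and 3 (Lmf1, Gpihbp1 and Lcat) did not pass, with a median of -1.61, and Lmf1 was called as lower with the block (adjusted p = 0.018). Lipc, hepatic lipase, fell by 2.75 (adjusted p = 3.8e-04). Of 12 lipoprotein receptors and lipid transporters, 7 fell, 2 rose and 3 did not pass, with a median of -1.17. Abca1, which loads lipid onto Apoa1, fell by 2.41 (adjusted p = 0.0012). Abcg5 (rose by 0.98, adjusted p = 0.023) and Abcg8 (rose by 0.74, adjusted p = 0.0072), the partners of the sterol transporter, rose together.

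Length was compared by lists named for long and short RNAs, which were drawn up by coding sequence. Of 13 tested long RNAs of secretory pathway proteins, 12 fell from light to dense zone and 1 (Plxnb2) did not pass, with a median of -2.08. Fn1 fell by 2.42 (adjusted p = 6.4e-04) and Cp by 2.29 (adjusted p = 0.0021), and no gene of the list fell as far as Apob. Lrp1, whose coding length of 13635 nt is close to that of Apob, fell by 1.32 (adjusted p = 0.0027), and Hspg2, with 13149 nt, by 0.79 (adjusted p = 0.0498). Of 19 long RNAs of cytosolic and cytoskeletal proteins, 10 rose, 1 (Macf1, fell by 0.91, adjusted p = 0.029) fell and 8 did not pass, with a median of 0.72. Fasn rose by 1.98 (adjusted p = 4.7e-04), Gcn1l1 by 1.94 (adjusted p = 9.8e-04) and Ubr4, with 15540 coding nt, by 1.31 (adjusted p = 0.035), while Ahnak was at -0.58 (adjusted p = 0.093). The isoform of Ahnak taken here has a coding length of only 450 nt, so Ahnak counts as long by its place on the list and not by that length. With the gradient as a block 14 of the 19 rose and 2 fell, Ahnak among them (adjusted p = 0.028).

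The lists of short RNAs also differed. The 10 short RNAs of other plasma proteins had coding lengths of 441 to 1443 nt, but the transcript taken for Serpinc1 (4970 nt) was longer than that of Cp (4029 nt) on a list of long RNAs, and that for Fgb (3810 nt) was close to it. Of these 10, 5 (Hpx, Ahsg, Fgb, Serpinc1 and Hp) fell, none rose and 5 did not pass, with a median of -1.28, and with the block 6 fell, Vtn being the one added (adjusted p = 0.040). Hpx fell by 1.78 (adjusted p = 0.015), Ahsg fell by 1.76 (adjusted p = 0.017), and Ttr, the thyroid hormone carrier, was at 0.49 (adjusted p = 0.37). Of 12 short RNAs of cytosolic proteins, 8 rose, 1 fell and 3 (Fth1, Sod1 and Ftl1) did not pass, with a median of 2.37. Fabp1, a fatty acid carrier of the cytosol, rose by 2.95 (adjusted p = 6.7e-04) and Prdx1 by 2.94 (adjusted p = 3.1e-04), whereas Tpt1 fell by 3.84 (adjusted p = 3.1e-04) and Fth1 was at -0.02 (adjusted p = 0.96). The 2 lists of short RNAs had medians on opposite sides of 0, as had the 2 lists of long RNAs, and the short members (median -0.35) lay between the 2 lists of short RNAs.

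Among the members themselves, those with a longer coding sequence mostly had a lower change from light to dense zone. Spearman's rho of coding length with the change was -0.83 over the 10 members and -0.77 over the 9 short members without Apob, and it was -0.83 and -0.85 in gradients 1 and 2. The 4 members with the shortest coding sequences were Apoc1 (264 nt), Apoc3 (297 nt), Apoa2 (306 nt) and Apom (570 nt), and they had the 4 highest changes, 0.56, 0.72, 1.25 and 0.64. Then came Apoa1 (792 nt) at -0.35, Apoe (933 nt) at -0.55, Apoh (1035 nt) at -1.41, Apoa5 (1104 nt) at -1.33, Apoa4 (1185 nt) at -0.44 and Apob (13515 nt) at -3.72. In 10 other proteins of lipoprotein particles rho was -0.79, in 10 short RNAs of other plasma proteins it was -0.62, and over 10995 genes tested with a coding length it was 0.10. With transcript length in place of coding length rho was -0.90 over the 10 members and -0.18 over the same 10995 genes. All points share the same libraries, so these values describe the genes and carry no p. Of 193 tested genes with transcripts of at least 10 kb, 49.2% were lower and 8.81% higher in the dense zone, against 39.2% and 22.3% of all genes, and none fell as far as Apob. Of 444 genes with a coding length over 4800 nt, 27.9% were lower and 19.6% higher, with a median change of -0.01.

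**Figure D5:**
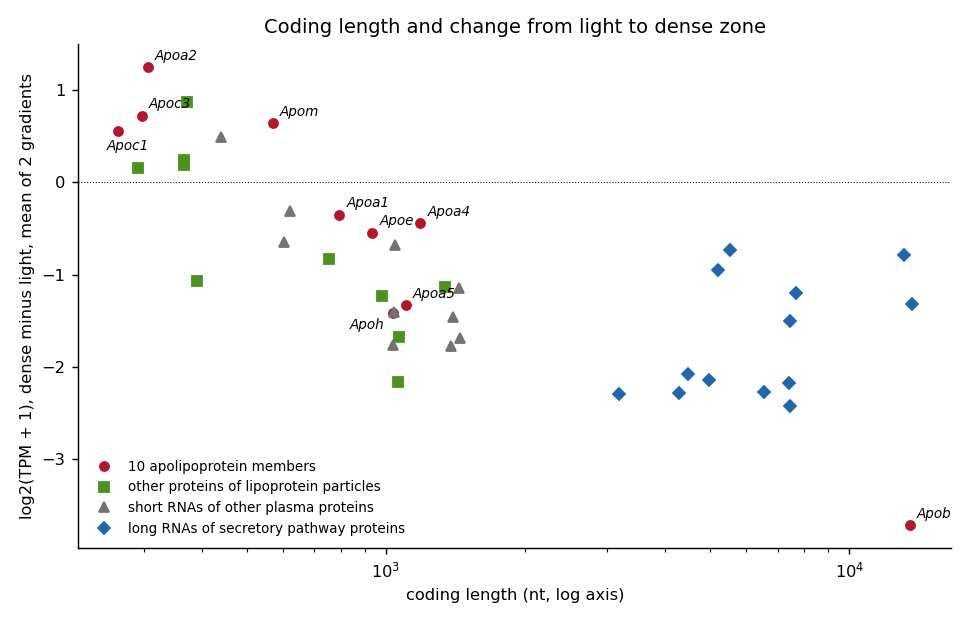
Change of log2(TPM + 1) from light to dense zone (mean of 2 gradients) against coding length in nt (log axis), 1 point per gene, for the 10 members (red circles, named), other lipoprotein particle proteins (green squares), short RNAs of other plasma proteins (grey triangles) and long RNAs of secretory pathway proteins (blue diamonds). Members with coding sequences of up to 570 nt lie above 0, those from 792 nt on lie below 0, and Apob at 13515 nt is lowest at -3.72.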

How the data were processed

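RNA from 39 sucrose gradient fractions of 2 mouse livers was measured. The authors depleted ribosomal RNA, made stranded libraries, demultiplexed with bcl2fastq 2.16.0.10 (per the submitters' processing notes), ran Kallisto against mm10 RefSeq transcripts and deposited 1 TPM table per gradient, keeping a gene if any fraction exceeded 1 TPM. The Kallisto version, strand setting and summing to genes are not given in the sources used here. TPM holds no counts, so no count model was used. No value column was unmatched (0).

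Genes in both tables with a mean of at least 1 TPM over the 17 shared fractions were tested with limma 3.58.1 (R 4.3.3, eBayes with trend) on 6 zone means of log2(TPM + 1), with a threshold of 0.05 on adjusted p. Fold changes on this scale understate the change of low genes. For Apob against the short members, the mean log2 value of the 9 was first subtracted in each library. Tables and profiles used Python 3.11.15 and SciPy 1.17.1, and the fit was tested on simulated data. A gradient is 1 mouse, so it pairs the zones: deviations between gradients correlated by 0.54 to 0.80 across zones, and the gradient as a block is given as an alternative. Other alternatives were the pseudocount, filters, 2 scalings, zone borders, a shift of fraction numbers, 1 gradient left out and, chosen after seeing the data, each gene's own spread.

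Members and gene lists were chosen with earlier results of these data known. Named are all members, the 2 largest changes of each list in each direction, genes of counts of 5 or fewer, and the 5 genes most like Apob and most like the short members (ranked by the lower R of the gradients, mean TPM of at least 10). A few genes this rule names are not reported here. Ubr4, Lrp1 and Hspg2 were named for their length after their values were seen. Lengths and sequences came from GENCODE M21, where 98.8% of symbols matched a transcript. The principal isoform was taken and, among ties, a transcript matched to RefSeq, then the longest coding sequence and then the longest transcript.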

Additional observations from a re-analysis of the deposited data

How the results depend on the processing

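Leaving out a gradient gives values with no test, so counts of genes could not be recomputed that way. Without 1 gradient Apob kept its direction: -4.05 to -3.39 for dense against light zone, -3.44 to -2.90 for middle against light and -0.61 to -0.49 for dense against middle. Its ratio to the short members was -3.97 to -3.26, -3.03 to -2.72 and -0.94 to -0.54, and the difference of centers -5.28 to -3.29. Of 30 tested values of Apob in the zone contrasts, 1 changed its call, -1.02 for dense against middle zone with other zone borders. Of 33 for its ratio 2 changed theirs, to adjusted p-values of 0.12 (-3.62) and 0.18 (-2.87) with each gene's own spread.

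Counts of genes called moved as follows. For dense against light zone, 4747 were called with a mean of at least 10 TPM, by construction of fewer genes, against 7192. With the block, 8411 were called for middle against light (5525 without it) and 6281 for dense against middle (3206 without it), and the latter was 1924 with gradient 2 shifted up and 1891 with own spread. Relative to the short members, 2383 genes were called for dense against light, 1327 with gradient 2 shifted up and 0 with own spread. For middle against light the count was 934, then 2058 (quantile normalization), 362 (other borders), 407 (shifted up), 1756 (block) and 0 (own spread). For dense against middle it was 5, then 17 (pseudocount 0.1), 8 (rescaled), 22 (other borders), 2 (shifted up), 9 (shifted down), 14 (block) and 0 (own spread).

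Quantile normalization moved the median change of all genes for dense against light zone from -0.42 to -0.04 and the higher genes from 36.3% to 50.9% of those called. Of 270 tested values of the other members, 240 kept direction and call, 11 lost and 8 gained a call, and 11 changed sign, none of them called: for dense against middle zone with other borders Apoa2 (-0.0098), Apoa4 (-0.21), Apoa5 (-0.17), Apoc3 (-0.12), Apoe (-0.061) and Apoh (-0.25), with gradient 2 shifted down Apoa4 (-0.021), Apoa5 (-0.0059) and Apoh (-0.047), and with quantile normalization Apoc3 (-0.19) and, for middle against light, Apom (-0.023). The block changed 3 calls of members, given with the results. Log2 weights moved the difference of centers from -4.28 to -0.79, and a shift of gradient 2 moved Apob's R between gradients from 0.985 to 0.896 (up) and 0.813 (down). The cause of the other changes was not tested. TPM keeps no depth, and with 2 mice the spread between gradients limits every comparison.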

Other observations

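Fraction 3 was sequenced in gradient 2 alone and enters no zone or test above, only the medians, ranges and relative profiles of that gradient. From fraction 3 to fraction 4, the RNAs of 8 of 10 members were higher in fraction 3, against 25.5% of all genes tested. Apoc1 stood at 10205 TPM in fraction 3 and 6584 in fraction 4, Apoa2 at 6748 and 4273, and Apoc3 at 2361 and 1635. Apob (781 and 1081 TPM) and Apoa5 (425 and 435 TPM) were lower in fraction 3. These are single libraries with no replicate.

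The bottom fractions 22 to 24 were likewise measured in gradient 2 alone. For 7 of 10 members their mean TPM was above that of the dense zone, against 35.7% of all genes tested, whose median ratio was 0.914. Apoe, at 6739 TPM against 3584 in the dense zone, was 1.88 times as high, and Apoh (1.59), Apoa5 (1.54), Apoa4 (1.44) and Apoa1 (1.39) followed. Apoc1 (0.660), Apoa2 (0.780) and Apoc3 (0.792), whose RNAs are the shortest of the members, were lower at the bottom than in the dense zone. Apob stood at 135 TPM against 120.0, a ratio of 1.13.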
